A study of Mus with 9 samples.

Results

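The transcripts of 10 genes that bring fatty acids into cells, store them in lipid droplets and release them again were followed in the kidneys of ageing mice. The genes were taken by symbol from the 54532 genes of the table, and all 10 passed the filter on low counts that left 15902 genes to test. They are Lpl, Angptl4 and Cd36 for lipid uptake, Plin2, Plin3, Plin4 and Plin5 for the droplet coat, Pnpla2 for lipolysis, and Dgat1 and Dgat2 for triglyceride synthesis.

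Lipoprotein lipase, encoded by Lpl, releases fatty acids from circulating triglyceride-rich lipoproteins, and CD36 is a membrane protein that takes up long-chain fatty acids. Inside the cell the DGAT enzymes carry out the last step of triglyceride synthesis, the perilipins coat the droplet that holds the product, and adipose triglyceride lipase, encoded by Pnpla2, starts its breakdown. The proximal tubule of the kidney is known to rely on fatty acid oxidation for energy, and several of these genes are known targets of the PPAR nuclear receptors.

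The kidneys came from 9 male C57BL/6 mice in groups of 3, named 18 mo, 21 mo and 21 mo/O304. All of the mice had lost 1 kidney to unilateral nephrectomy at 18 months of age. Kidneys of the 18 mo group were taken 1 week later, the 21 mo group received saline into the peritoneum for 12 weeks, and the 21 mo/O304 group received O304, an activator of the energy-sensing kinase AMPK, by the same route and over the same time at a daily dose of 10 mg/kg. The study asked how the kidney ages and how O304 acts on it, with fatty acid metabolism among the processes of interest. Age, time after surgery and injection cannot be told apart in any comparison with the 18 mo group.

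Total counts on genes ranged from 15636378 to 18396725, so that 1 count was worth 0.0458 to 0.0669 CPM (counts scaled by library size with TMM factors). Markers of the kidney were present in every library, with the summed level of 11 proximal tubule markers at 13495 to 17494 CPM in the 18 mo and 21 mo/O304 libraries. The 21 mo libraries stood apart from each other. Their proximal tubule sum was 14187, 6918 and 1809 CPM in replicates 1, 2 and 3, their sum of 11 macrophage markers was 790, 1258 and 3857 CPM, and their sum of 8 fibroblast markers was 164, 605 and 1513 CPM. The 18 mo mice were not uniform either. Their sum of 7 thick limb and distal tubule markers was 8089, 3946 and 4139 CPM in replicates 1, 2 and 3. Their sum of 7 collecting duct markers was 615, 374 and 352 CPM. The biological coefficient of variation among 18 mo, 21 mo and 21 mo/O304 mice was 18.1%, 44.2% and 20.6%. Values of the lipid genes that rest on the 21 mo group are therefore given for each mouse, and with single libraries left out where that mattered.

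In FPKM, fragments scaled by gene length and library size, the unit in which levels of different genes can be compared, Cd36, Lpl and Dgat2 were the most abundant of the 10 transcripts in the 18 mo group. Their mean levels there were 102, 90.4 and 68.3 FPKM, and the ranges of neighbours in that order overlapped. Pnpla2 at 34.2 FPKM, Plin2 at 29.8 FPKM and Angptl4 at 20.2 FPKM followed. Plin3 lay at 13.5 FPKM, Dgat1 at 9.34 FPKM, Plin5 at 3.31 FPKM and Plin4 at 0.289 FPKM, and of these only Plin3 overlapped with its upper neighbour, Angptl4. Cd36 stood at the 96.8th percentile and Plin4 at the 14.3rd percentile of tested genes by mean FPKM over all 9 libraries.

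Lpl was the second of the 10 genes in the 18 mo and 21 mo/O304 groups and the 6th in the 21 mo group, while Plin2 was the 5th, the second and the 6th in the 18 mo, 21 mo and 21 mo/O304 groups. At 21 mo Cd36 led at 62.3 FPKM, followed by Plin2 at 39.6 FPKM, Dgat2 at 34.7 FPKM, Pnpla2 at 30.4 FPKM, Angptl4 at 28.4 FPKM, Lpl at 27.8 FPKM and Plin3 at 15.8 FPKM. Each of these 7 overlapped with the next of them, so their order was within the spread between mice. In the 21 mo/O304 group Cd36 at 139 FPKM, Lpl at 103 FPKM and Dgat2 at 65.1 FPKM did not overlap with their neighbours, while Angptl4 at 39.3 FPKM, Pnpla2 at 37.1 FPKM and Plin2 at 32.9 FPKM did. Dgat1, Plin5 and Plin4 closed the order in every group, each apart from its neighbours.

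**Figure D1:**
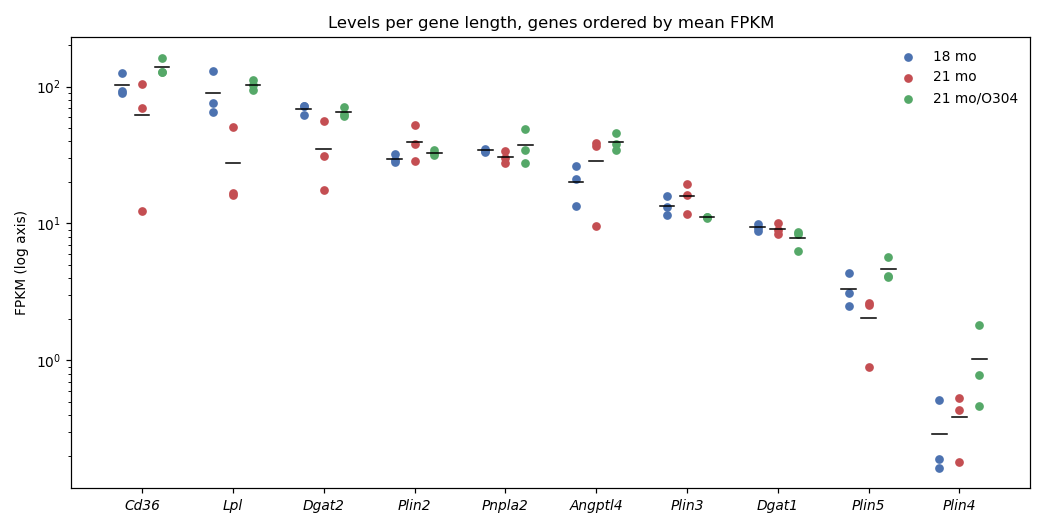
FPKM of the 10 genes in each of the 9 mice on a log axis, ordered by the mean over all mice, with a line at each group mean. Cd36 and Lpl reach above 100 FPKM in the 18 mo and 21 mo/O304 groups, the 21 mo points spread widest for Lpl, Cd36, Dgat2 and Angptl4, and Plin4 stays under 2 FPKM in every mouse.

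Lpl lies on chromosome 8 from 68880491 to 68907448 on the forward strand, in the GRCm38 coordinates of the table. Its level was 825, 1387 and 709 CPM in the 18 mo mice, 547, 176 and 182 CPM in the 21 mo mice, and 1020, 1100 and 1206 CPM in the 21 mo/O304 mice. All 21 mo mice lay below all other mice, and the highest of them, replicate 1, had about 3 times the level of the others in its group. The mean was 974 ± 362 CPM at 18 months, 301 ± 213 CPM at 21 months and 1108 ± 93.4 CPM with O304 (SD, n = 3 each).

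Between 21 mo and 18 mo the log2 fold change of Lpl was −1.69 (SE 0.47), a level 3.23-fold lower, with an adjusted p of 0.0848 in edgeR's quasi-likelihood test. Between 21 mo/O304 and 21 mo it was 1.88 (SE 0.47), a level 3.68-fold higher, with an adjusted p of 0.175 in edgeR. Both differences missed the threshold of 0.05 there, and the exact permutation test of 3 mice against 3 gave its smallest possible p, 0.1, for each. DESeq2, the tool named in the study's methods, put both past the threshold, with adjusted p-values of 0.00429 and 0.00283. Without replicate 1 of the 21 mo group, edgeR also called both, at −2.43 (adjusted p = 0.00397) and 2.62 (adjusted p = 0.00455), whereas without replicate 3 they were −1.45 and 1.62 (adjusted p = 0.123 and 0.258). The 21 mo/O304 and 18 mo mice overlapped and differed by 0.19 on the log2 scale (SE 0.45, adjusted p = 0.936 in edgeR).

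Angptl4 encodes a secreted inhibitor of lipoprotein lipase and lies on chromosome 17 from 33773750 to 33781575 on the reverse strand. Its level was 46.0, 87.4 and 71.1 CPM in the 18 mo mice, 132, 125 and 32.6 CPM in the 21 mo mice, and 155, 116 and 129 CPM in the 21 mo/O304 mice. Replicate 3 of the 21 mo group was the lowest of all 9 mice, while the other 21 mo mice lay among the O304-treated ones and above all 18 mo mice.

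The log2 fold change of Angptl4 from 18 mo was 0.50 (SE 0.45) at 21 mo, with an adjusted p of 0.499 in edgeR, and 0.90 without 21 mo replicate 3. Without 21 mo replicate 1 or 2 it was 0.22 or 0.26, and without 18 mo replicate 1 it was 0.28. With O304 it was 0.97 (SE 0.46) against 18 mo, with no overlap between mice and an adjusted p of 0.539 in edgeR (exact permutation test, two-sided, p = 0.1). Against 21 mo it was 0.47 (SE 0.45, adjusted p = 0.550 in edgeR), and ran from 0.061 without 21 mo replicate 3 to 0.75 without replicate 1.

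Lpl and Angptl4 therefore stood in different proportions. The ratio of their FPKM, chosen after the values were seen and given without a test, was 5.63, 4.98 and 3.13 in the 18 mo mice, 1.30, 0.441 and 1.75 in the 21 mo mice, and 2.06, 2.98 and 2.94 in the 21 mo/O304 mice. The 3 groups did not overlap, with the 21 mo/O304 mice between the others. Within the 21 mo group replicate 2, with the lowest ratio, had Lpl at 176 CPM, the lowest of the 9 mice, and Angptl4 at 125 CPM. Replicate 1 had 547 and 132 CPM of the 2 transcripts, and replicate 3 was low in both, at 182 and 32.6 CPM. Gpihbp1, which anchors lipoprotein lipase to the capillary wall and was also picked after its values were seen, had log2 fold changes of −0.64 at 21 mo against 18 mo and 0.65 with O304 against 21 mo (adjusted p = 0.361 and 0.379 in edgeR).

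Cd36 lies on chromosome 5 from 17781690 to 17888801 on the reverse strand. Its level was 347, 457 and 332 CPM in the 18 mo mice, 387, 259 and 46.3 CPM in the 21 mo mice, and 476, 469 and 601 CPM in the 21 mo/O304 mice. All O304-treated mice lay above all other mice, and the 21 mo group ran from within the 18 mo range down to the lowest level of the 9 mice, in replicate 3.

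The mean level of Cd36 was 379 ± 68.1, 231 ± 172 and 515 ± 73.9 CPM in the 18 mo, 21 mo and 21 mo/O304 groups (SD, n = 3 each). With O304 it was 2.23-fold that of the 21 mo group, or 1.16 (SE 0.58) as a log2 fold change with an adjusted p of 0.281 in edgeR, and 0.68 without replicate 3 of the 21 mo group. Against 18 mo it was 0.45 (SE 0.58) with O304 and −0.71 (SE 0.58) at 21 mo, with adjusted p-values of 0.854 and 0.447 in edgeR. The second of these was −0.25 without 21 mo replicate 3 and −1.29 without replicate 1, and O304 against 21 mo was 1.74 without replicate 1.

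**Figure D2:**
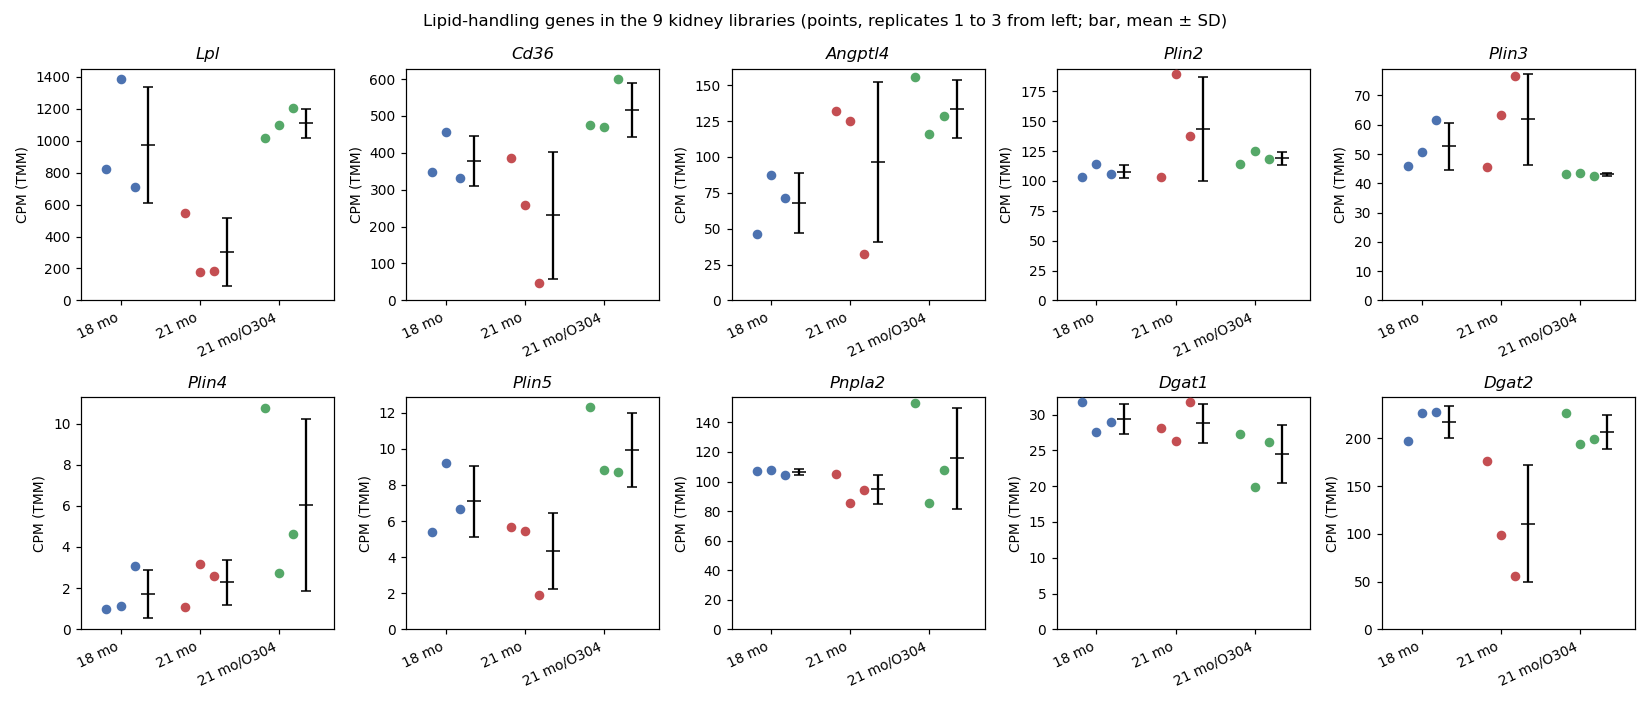
CPM of each gene in the 3 mice of each group, with the mean ± SD as a bar, on linear axes that start at 0. Lpl and Dgat2 are lower in all 3 mice of the 21 mo group than in all other mice, Cd36 is higher in all 3 O304-treated mice, and Plin3 is within 42.6 to 43.4 CPM in the O304-treated mice.

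Among the perilipins, Plin2 and Plin3 made up most of the coat transcripts. Plin2 encodes adipophilin, also called ADRP, which coats droplets in many cell types, and lies on chromosome 4 from 86648386 to 86670060 on the reverse strand. Its level was 103, 114 and 106 CPM in the 18 mo mice, 104, 190 and 138 CPM in the 21 mo mice, and 114, 125 and 118 CPM in the 21 mo/O304 mice. Replicates 2 and 3 of the 21 mo group were the highest of the 9 mice, and replicate 1 lay within the 18 mo range.

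For Plin2 the log2 fold change was 0.41 (SE 0.20) at 21 mo against 18 mo and −0.27 (SE 0.20) with O304 against 21 mo, with adjusted p-values of 0.220 and 0.431 in edgeR. The first was 0.62 without replicate 1 of the 21 mo group and passed the threshold (adjusted p = 0.0207 in edgeR). Without replicate 2 the values were 0.15 and −0.01. The O304-treated mice lay just above the 18 mo mice, at 0.14 (SE 0.20, adjusted p = 0.866 in edgeR), with the nearest mice both at 114 CPM.

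Plin3 encodes a perilipin that is also found free in the cytosol, and lies on chromosome 17 from 56277476 to 56292873 on the reverse strand. Its level was 45.9, 50.7 and 61.5 CPM in the 18 mo mice, 45.5, 63.3 and 76.7 CPM in the 21 mo mice, and 43.3, 43.4 and 42.6 CPM in the 21 mo/O304 mice. All O304-treated mice lay below all other mice and close together. The log2 fold change was −0.52 (SE 0.19) against 21 mo and −0.29 (SE 0.19) against 18 mo, with adjusted p-values of 0.195 and 0.662 in edgeR.

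Without replicate 1 of the 21 mo group the difference in Plin3 between O304 and 21 mo was −0.71 and passed the threshold (adjusted p = 0.0151 in edgeR). Without replicate 3 it was −0.33 (adjusted p = 0.401 in edgeR). Between 21 mo and 18 mo it was 0.23 (SE 0.19, adjusted p = 0.448 in edgeR), with overlapping mice, and 0.027 without 21 mo replicate 3. Single libraries left out gave up to 0.43 there, and −0.38 to −0.16 for O304 against 18 mo.

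Plin5 encodes the perilipin of tissues that oxidize much fat, which links droplets to mitochondria, and lies on chromosome 17 from 56111601 to 56117596 on the reverse strand. Its level was 5.39, 9.24 and 6.68 CPM in the 18 mo mice, 5.69, 5.46 and 1.92 CPM in the 21 mo mice, and 12.3, 8.82 and 8.72 CPM in the 21 mo/O304 mice, from 42 to 212 counts. All O304-treated mice lay above all 21 mo mice, and replicate 3 of the 21 mo group was the lowest of the 9.

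For Plin5 the log2 fold change with O304 against 21 mo was 1.20 (SE 0.40), a level 2.30-fold higher, with an adjusted p of 0.184 in edgeR. That value was 1.43 without 21 mo replicate 1, just past the threshold (adjusted p = 0.0499 in edgeR). At 21 mo against 18 mo it was −0.71 (SE 0.40) and with O304 against 18 mo it was 0.49 (SE 0.39), with overlapping mice and adjusted p-values of 0.284 and 0.738 in edgeR. Without 21 mo replicate 3, Plin5 differed by −0.37 at 21 mo against 18 mo and by 0.85 with O304 against 21 mo. For O304 against 18 mo, leaving out single libraries gave 0.31 to 0.72.

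Plin4, a perilipin known mainly from adipocytes and muscle, lies next to Plin5 on chromosome 17, from 56100591 to 56109803 on the reverse strand with 1797 bases between them. It overlaps Hdgfl2 on the opposite strand, and whether counting used strand is not given in the sources used here, so reads of the 2 genes may not have been told apart. Its level was 0.991, 1.11 and 3.05 CPM in the 18 mo mice, 1.07, 3.18 and 2.61 CPM in the 21 mo mice, and 10.8, 2.74 and 4.65 CPM in the 21 mo/O304 mice, from 16 to 185 counts. Replicate 1 of the 21 mo/O304 group was the highest of the 9, and replicate 2 of that group lay among the untreated mice.

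For Plin4 the log2 fold change with O304 was 1.39 (SE 0.64) against 21 mo and 1.81 (SE 0.65) against 18 mo, with adjusted p-values of 0.253 and 0.450 in edgeR. Both dropped without replicate 1 of the 21 mo/O304 group, to 0.67 and 1.10. At 21 mo against 18 mo it was 0.41 (SE 0.65, adjusted p = 0.708 in edgeR), and it ran from 0.094 without 21 mo replicate 2 to 1.14 without 18 mo replicate 3.

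Taking the FPKM of Plin2, Plin3, Plin4 and Plin5 together, Plin2 held 60.1% to 73.1% of the sum in every mouse. The share of Plin3 was 26.5% to 32.4% in the 18 mo mice, 22.6% to 33.3% in the 21 mo mice, and 22.1% to 22.6% in the 21 mo/O304 mice. Plin5 had 5.83%, 8.77% and 6.38% in the 18 mo mice, 6.13%, 3.54% and 1.51% in the 21 mo mice, and 11.4%, 8.16% and 8.38% in the O304-treated mice. The lowest share of Plin5 was thus in replicate 3 of the 21 mo group, and Plin4 was at most 3.60% in any mouse. The summed level was 42.5 to 49.6 FPKM in the 18 mo mice, 43.0 to 71.6 FPKM in the 21 mo mice, and 48.4 to 50.3 FPKM in the 21 mo/O304 mice, with the highest sum in replicate 2 of the 21 mo group, where Plin2 was highest.

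Pnpla2 encodes adipose triglyceride lipase and lies on chromosome 7 from 141455198 to 141460743 on the forward strand. Its level was 107, 108 and 104 CPM in the 18 mo mice, 105, 85.4 and 94.4 CPM in the 21 mo mice, and 153, 85.7 and 108 CPM in the 21 mo/O304 mice. The groups overlapped except for replicate 1 of the 21 mo/O304 group, which was above all other mice. The log2 fold change was −0.16 (SE 0.20) at 21 mo against 18 mo, with an adjusted p of 0.618 in edgeR.

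With O304 the log2 fold change of Pnpla2 was 0.28 (SE 0.20) against 21 mo and 0.12 (SE 0.20) against 18 mo, with adjusted p-values of 0.408 and 0.896 in edgeR. Without replicate 1 of the 21 mo/O304 group these were 0.01 and −0.13, and without replicate 2 of it they were 0.45 and 0.31. G0s2, an inhibitor of the same lipase, was at 43.3, 36.5 and 36.0 CPM in the 18 mo mice, 32.9, 28.4 and 24.5 CPM in the 21 mo mice, and 59.0, 47.3 and 56.1 CPM in the 21 mo/O304 mice. Its 3 groups did not overlap, with log2 fold changes of −0.43 (SE 0.15, adjusted p = 0.115 in edgeR) at 21 mo against 18 mo and 0.92 (SE 0.15, adjusted p = 0.175 in edgeR) with O304 against 21 mo. Abhd5, which encodes the activator of the lipase and was picked after its values were seen, differed by −0.16 and 0.06 in the same comparisons (adjusted p = 0.443 and 0.800 in edgeR).

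Dgat2 lies on chromosome 7 from 99153658 to 99182719 on the reverse strand. Its level was 198, 226 and 227 CPM in the 18 mo mice, 177, 98.4 and 56.1 CPM in the 21 mo mice, and 227, 195 and 199 CPM in the 21 mo/O304 mice. As for Lpl, all 21 mo mice lay below all other mice, and replicate 1 was the nearest to them. The mean was 217 ± 16.7, 110 ± 61.2 and 207 ± 17.4 CPM in the 3 groups (SD, n = 3 each).

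For Dgat2 the log2 fold change was −0.98 (SE 0.34) at 21 mo against 18 mo, a level 1.97-fold lower, and 0.91 (SE 0.34) with O304 against 21 mo, a level 1.87-fold higher, with adjusted p-values of 0.123 and 0.202 in edgeR. The exact permutation test gave p = 0.1 for each, the smallest it can give. Without replicate 1 of the 21 mo group the values were −1.47 and 1.41 and both passed the threshold (adjusted p = 0.00606 and 0.00886 in edgeR), while without replicate 3 they were −0.67 and 0.59 (adjusted p = 0.135 and 0.306 in edgeR). With O304 against 18 mo it was −0.07 (SE 0.34, adjusted p = 0.970 in edgeR).

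Dgat1, which catalyses the same step as Dgat2, lies on chromosome 15 from 76502015 to 76511953 on the reverse strand. Its level was 31.7, 27.5 and 29.0 CPM in the 18 mo mice, 28.1, 26.4 and 31.8 CPM in the 21 mo mice, and 27.3, 19.8 and 26.2 CPM in the 21 mo/O304 mice. The 18 mo and 21 mo mice overlapped, and the O304-treated mice lay below the 18 mo mice by a narrow gap. The log2 fold change was −0.03 (SE 0.15) at 21 mo against 18 mo, and its sign turned to 0.012 under upper-quartile normalization. With O304 it was −0.23 (SE 0.15) against 21 mo and −0.27 (SE 0.15) against 18 mo, with adjusted p-values of 0.361 and 0.599 in edgeR, and −0.12 and −0.13 without replicate 2 of the 21 mo/O304 group.

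The ratio of Dgat2 to Dgat1, again chosen after the values were seen, was 6.18, 8.14 and 7.76 in FPKM in the 18 mo mice, 6.24, 3.70 and 1.75 in the 21 mo mice, and 8.22, 9.72 and 7.54 in the O304-treated mice. The 21 mo mice spanned from within the 18 mo range to under 2. Pnpla2 over Dgat2, the lipase over the synthetic enzyme, was 0.551, 0.488 and 0.468 in the 18 mo mice, 0.606, 0.886 and 1.72 in the 21 mo mice, and 0.690, 0.449 and 0.553 in the O304-treated mice. Pnpla2 exceeded Dgat2 in replicate 3 of the 21 mo group alone among the 9 mice, on the FPKM scale.

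**Figure D3:**
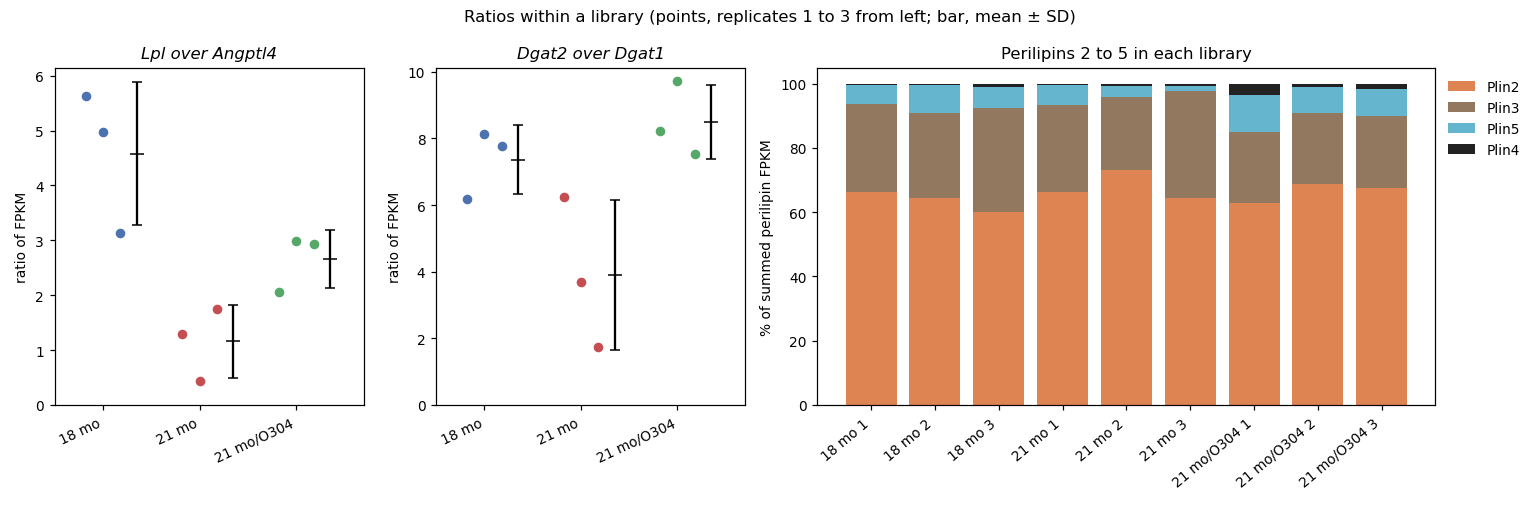
Ratios of FPKM within each mouse for Lpl over Angptl4 and Dgat2 over Dgat1, with the group mean ± SD as a bar, and the share of each perilipin in the summed FPKM of Plin2 to Plin5 as stacked bars. The ratio of Lpl to Angptl4 does not overlap between the 3 groups, that of Dgat2 to Dgat1 reaches from 6.24 down to 1.75 in the 21 mo mice, and the Plin5 share is smallest in replicate 3 of the 21 mo group.

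Across the 10 genes none passed an adjusted p of 0.05 in edgeR in any of the 3 comparisons. Over all tested genes the share past that threshold was 0.0189% at 21 mo against 18 mo and 0% in the comparisons of 21 mo/O304 with 21 mo and with 18 mo. At an unadjusted p under 0.05 edgeR counted 2 of the 10 genes at 21 mo against 18 mo (26.1% of all tested genes), 4 with O304 against 21 mo (20.7%) and 1 with O304 against 18 mo (9.66%). They were Lpl and Dgat2 in the first, Lpl, Dgat2, Plin5 and Plin3 in the second and Plin4 in the third.

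The mice of the groups did not overlap for 2 of the 10 genes at 21 mo against 18 mo, Lpl and Dgat2, beside 28.8% of all tested genes. With O304 against 21 mo they did not overlap for 5, namely Lpl, Cd36, Plin5 and Dgat2 (higher) and Plin3 (lower), beside 21.3%. With O304 against 18 mo they did not overlap for 5, with Cd36, Angptl4 and Plin2 higher and Plin3 and Dgat1 lower, beside 26.5%. The median log2 fold change of the 10 genes was −0.10, 0.69 and 0.17 in the 3 comparisons, beside 0.03, −0.02 and 0.00 over all tested genes. The first comparison and the second share the 21 mo mice, the first and the third share the 18 mo mice, and the second and the third share the 21 mo/O304 mice, so their values are not independent.

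The number of calls differed between tools and with the libraries used. DESeq2 called Lpl in each of the comparisons with the 21 mo group and none of the 10 genes in the third (12.3%, 6.07% and 0.869% of genes it tested). limma voom with quality weights, which gave replicates 1, 2 and 3 of the 21 mo group weights of 0.223, 9.11 and 0.132, called 4 genes at 21 mo against 18 mo (52.9% of all tested), 6 with O304 against 21 mo (41.1%) and none with O304 against 18 mo (2.61%). The 4 were Lpl and Dgat2 (lower) and Plin2 and Angptl4 (higher). The 6 were Lpl, Cd36, Dgat2 and Plin5 (higher) and Plin2 and Plin3 (lower). Without replicate 1 of the 21 mo group, edgeR called 3 of the 10 genes in the first comparison and 4 in the second (25.4% and 23.1% of all tested).

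**Figure D4:**
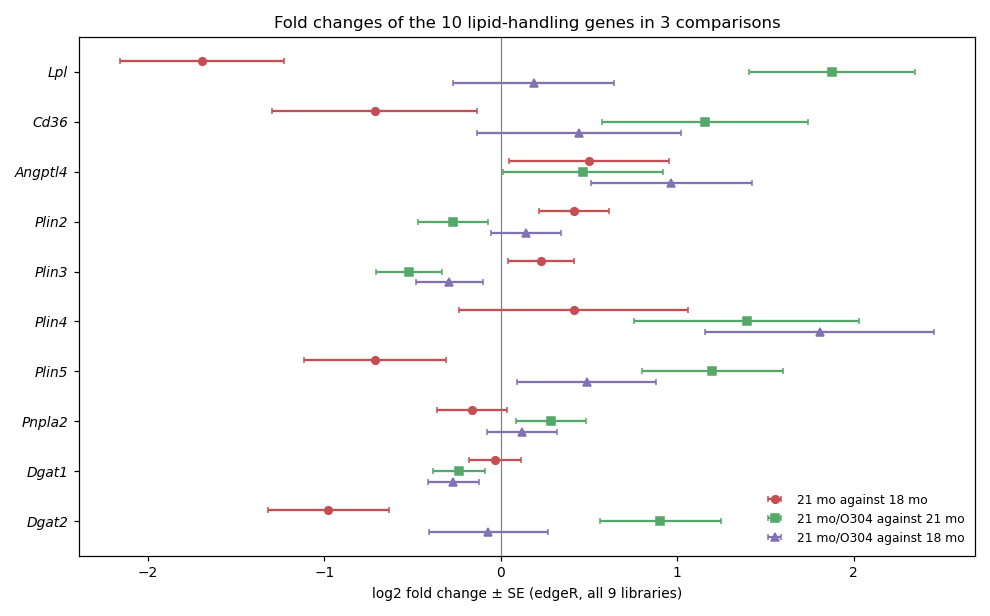
log2 fold change ± SE of the 10 genes from edgeR in the 3 comparisons, fitted over all 9 libraries. Lpl, Cd36, Plin5 and Dgat2 are negative at 21 mo against 18 mo and positive with O304 against 21 mo, none with an adjusted p under 0.05, and the values of O304 against 18 mo are nearer to 0 for Lpl, Cd36, Plin5 and Dgat2.

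The wide spread between the 21 mo mice was not particular to these transcripts. Over all tested genes the biological coefficient of variation was 18.1%, 44.2% and 20.6% in the 18 mo, 21 mo and 21 mo/O304 groups. The ratios and ranks below were not computed for all tested genes. The ratio of the highest to the lowest mouse had a median over the 10 genes of 1.36 in the 18 mo mice, 2.96 in the 21 mo mice, and 1.31 in the 21 mo/O304 mice. It was widest in the 21 mo group for 7 of the 10 genes and in the 21 mo/O304 group for Dgat1, Plin4 and Pnpla2. Replicate 3 of the 21 mo group was the lowest of the 9 mice for Cd36, Angptl4, Plin5 and Dgat2 and the highest for Plin3 and Dgat1. This mouse also had the lowest proximal tubule sum, at 1809 CPM, and the highest macrophage sum, at 3857 CPM, and its sum of 10 lymphocyte markers was 634 CPM against 111 and 115 CPM in the other mice of its group. Which part of the kidney gave the RNA is not stated in the sources used here. Fewer cells of a type, less RNA per cell and unlike pieces of tissue cannot be told apart. The part of these markers in the levels of the lipid genes was not tested.

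Adipocyte markers stood highest in the O304-treated mice. Summed over 10 genes they were at 85.8 to 139 CPM in the 18 mo mice, 53.5 to 149 CPM in the 21 mo mice, and 170 to 451 CPM in the 21 mo/O304 mice. Counts of Adipoq, which encodes adiponectin, were 0, 0 and 25 in the 18 mo mice, 1, 0 and 11 in the 21 mo mice, and 372, 33 and 237 in the O304-treated mice. Those of Plin1, the perilipin of white adipocytes, were 0, 1 and 18 in the 18 mo mice, 1, 2 and 2 in the 21 mo mice, and 217, 19 and 84 in the O304-treated mice. Replicates 1 and 3 of the O304 group were thus the highest for both, and Lep was at 0 in all 21 mo mice.

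Plin4 was highest in replicates 1 and 3 of the O304 group, the mice with the most Adipoq, and Pnpla2 was highest in replicate 1. Lpl, known to be abundant in adipocytes, was at 1100 CPM in replicate 2 of the O304 group, where Adipoq had 33 counts, and at 1387 CPM in replicate 2 of the 18 mo group, where Adipoq had 0. In the 18 mo mice Plin4 was at 0.991, 1.11 and 3.05 CPM beside 0, 0 and 25 counts of Adipoq. In the 21 mo mice Plin4 was at 1.07, 3.18 and 2.61 CPM beside 1, 0 and 11 counts of Adipoq. Fabp4, the most abundant adipocyte marker and one that endothelial cells and macrophages also express, was at 46.0 to 89.7 CPM in the 18 mo mice, 30.1 to 128 CPM in the 21 mo mice and 101 to 147 CPM in the O304-treated mice. Of 6 brown adipocyte markers the defining one, Ucp1, had at most 6 counts in any mouse, and Elovl3 was at 0 in all mice of the 18 mo and 21 mo groups. Their summed level had a median of 14.4, 7.27 and 8.15 CPM in the 3 groups, most of it Cox7a1 except in 21 mo replicate 3, where Dio2 was higher. The part of adipocyte RNA in the values of Plin4, Pnpla2 and Lpl was not tested.

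**Figure D5:**
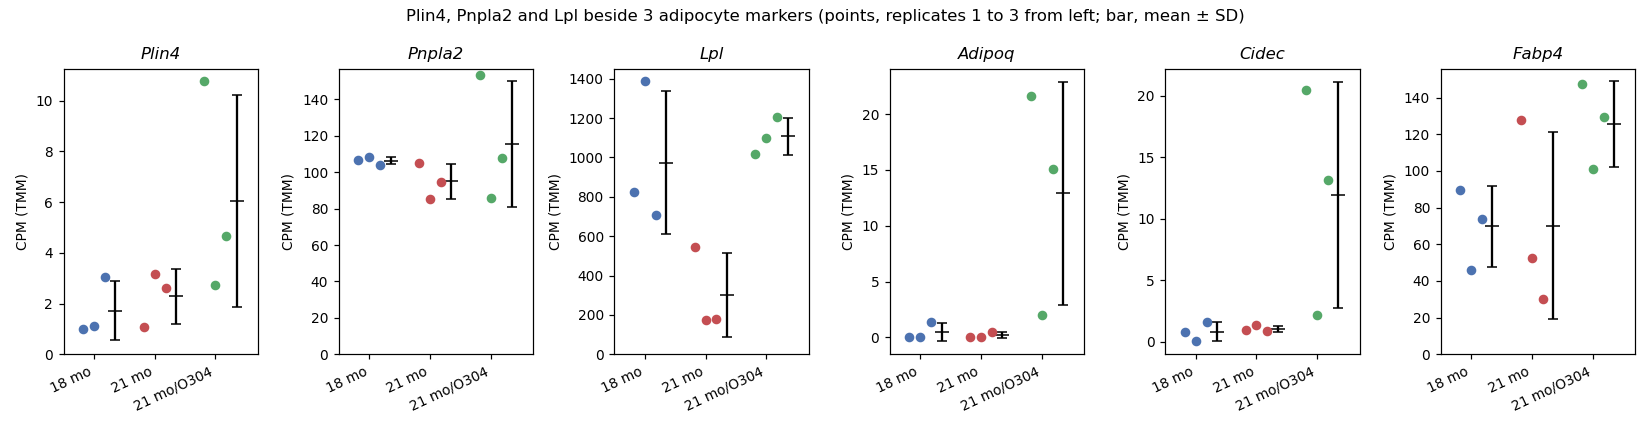
CPM of Plin4, Pnpla2 and Lpl beside the adipocyte markers Adipoq, Cidec and Fabp4 in each mouse, with the group mean ± SD as a bar, on linear axes. Adipoq and Cidec are high in replicates 1 and 3 of the 21 mo/O304 group and near 0 in the untreated mice, while Lpl is above 1000 CPM in all 3 O304-treated mice.

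The wider lipid pathway was read from 7 lists of 104 genes, of which 90 were tested. None passed the threshold in edgeR in any comparison. At an unadjusted p under 0.05, 7 were higher and 10 lower at 21 mo against 18 mo (14% and 12% of all tested genes), 16 higher and 10 lower with O304 against 21 mo (8.27% and 12.4%), and 7 higher and 5 lower with O304 against 18 mo (4.33% and 5.33%). DESeq2 called 10, 12 and 5 of the listed genes in the 3 comparisons, beside 12.3%, 6.07% and 0.869% of all genes it tested. Their median log2 fold change was −0.13, 0.21 and 0.11, beside 0.03, −0.02 and 0.00 over all tested genes.

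Of 13 tested genes of fatty acid uptake and activation, 4 had an unadjusted p under 0.05 at 21 mo against 18 mo, 3 of them higher, beside 26.1% of all tested genes. The smallest p was that of Acsl4, an acyl-CoA synthetase that prefers arachidonic acid. It was at 40.3, 50.4 and 49.0 CPM in the 18 mo mice, 69.0, 109 and 113 CPM in the 21 mo mice, and 57.6, 48.5 and 47.6 CPM in the 21 mo/O304 mice. The 21 mo mice lay above all others, with log2 fold changes of 1.06 against 18 mo (SE 0.19, adjusted p = 0.0626 in edgeR) and −0.92 for O304 against 21 mo (SE 0.19, adjusted p = 0.175 in edgeR). Fabp3, a fatty acid binding protein, led the list with O304 against 18 mo, at −0.77 (SE 0.27, adjusted p = 0.441 in edgeR).

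Of 11 tested partners of lipoprotein lipase and lipoprotein receptors, 5 had an unadjusted p under 0.05 with O304 against 21 mo, all lower, beside 12.4% of all tested genes lower. Lsr, the lipolysis-stimulated lipoprotein receptor, had the smallest, at −0.77 (SE 0.16, adjusted p = 0.175 in edgeR), and −0.48 against 18 mo (SE 0.16, adjusted p = 0.402 in edgeR). Lmf1, a chaperone that lipoprotein lipase needs to fold, was at 29.4, 30.6 and 26.6 CPM in the 18 mo mice, 24.7, 22.1 and 17.9 CPM in the 21 mo mice, and 28.6, 23.8 and 26.1 CPM in the 21 mo/O304 mice. All 21 mo mice lay below all 18 mo mice, at −0.42 (SE 0.14, adjusted p = 0.118 in edgeR).

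Among 13 other tested droplet proteins, 5 were higher and 1 lower at an unadjusted p under 0.05 with O304 against 21 mo, beside 8.27% and 12.4% of all tested genes. The 5 were Plin1, Cidec, Hsd17b11, Fitm2 and Spart, of which Plin1 and Cidec are also on the adipocyte marker list, and the 1 was Hilpda. Hsd17b11, a dehydrogenase that sits on droplets, was at 266, 313 and 277 CPM in the 18 mo mice, 156, 113 and 102 CPM in the 21 mo mice, and 272, 279 and 453 CPM in the 21 mo/O304 mice. Its 21 mo mice lay below all others, with log2 fold changes of −1.20 against 18 mo (SE 0.24, adjusted p = 0.0626 in edgeR) and 1.43 for O304 against 21 mo (SE 0.25, adjusted p = 0.175 in edgeR). Cidec, which fuses droplets and is also one of the adipocyte markers, was at 20.5, 2.21 and 13.2 CPM with O304 and at 0.805, 0.0616 and 1.64 CPM at 18 mo, which differed by 3.81 on the log2 scale (SE 0.95, adjusted p = 0.337 in edgeR).

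Of 10 other tested lipolysis genes, 4 were higher and none lower at an unadjusted p under 0.05 with O304 against 21 mo, beside the same 8.27% and 12.4%. The 4 were Lipe, Mgll, Lipa and G0s2, of which G0s2 encodes an inhibitor of lipolysis. Lipe, which encodes hormone-sensitive lipase, had the smallest p. It was at 17.0, 21.0 and 17.8 CPM in the 18 mo mice, 15.7, 14.4 and 15.2 CPM in the 21 mo mice, and 42.4, 28.2 and 28.8 CPM in the 21 mo/O304 mice. The O304-treated mice lay above all others, with log2 fold changes of 1.14 against 21 mo (SE 0.18, adjusted p = 0.175 in edgeR) and 0.83 against 18 mo (SE 0.18, adjusted p = 0.323 in edgeR). Lipe is also on the adipocyte marker list.

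Of 17 tested genes of triglyceride and sterol ester synthesis, 2 were lower at an unadjusted p under 0.05 at 21 mo against 18 mo and 2 were higher with O304 against 21 mo, beside 12% and 8.27% of all tested genes, near the shares of the list. Agpat3, an acyltransferase earlier in the route than the DGAT enzymes, led the first at −0.67 (SE 0.26, adjusted p = 0.151 in edgeR). Lpin1, the phosphatidate phosphatase that makes the substrate of the DGAT enzymes, led the second at 1.05 (SE 0.42, adjusted p = 0.213 in edgeR), with overlapping mice. Gpat2, at 0.349 to 2.43 CPM over the 9 mice, led the comparison of O304 with 18 mo at −1.04 (SE 0.55, adjusted p = 0.584 in edgeR).

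Of 10 tested PPAR receptors, partners and coactivators, 3 were lower and none higher at an unadjusted p under 0.05 at 21 mo against 18 mo, beside 12% and 14% of all tested genes. Rxrb, a partner of the PPAR receptors, was at 61.3, 60.4 and 65.8 CPM in the 18 mo mice, 43.3, 40.3 and 47.5 CPM in the 21 mo mice, and 45.6, 48.3 and 58.4 CPM in the 21 mo/O304 mice. The 18 mo mice lay above all others, with log2 fold changes of −0.52 at 21 mo (SE 0.12, adjusted p = 0.0716 in edgeR) and −0.30 with O304 (SE 0.12, adjusted p = 0.482 in edgeR). Ppargc1b, a coactivator, was 0.73 higher on the log2 scale with O304 than at 21 mo (SE 0.28, adjusted p = 0.201 in edgeR).

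Of 16 tested genes that PPAR alpha is known to induce, 15 had a positive log2 fold change with O304 against 18 mo (median 0.32, beside 0.00 over all tested genes) and 2 were higher at an unadjusted p under 0.05, beside 4.33% of all tested genes.

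Cyp4a14, a fatty acid hydroxylase with close paralogs that may share its reads, was at 30.2, 62.1 and 38.2 CPM in the 18 mo group and 577, 345 and 127 CPM in the 21 mo group. The difference was 3.01 on the log2 scale (SE 0.65, adjusted p = 0.0631 in edgeR). With O304 it was at 161, 99.5 and 38.6 CPM, overlapping with both other groups. Ucp2, an inner mitochondrial membrane carrier, led the comparison of O304 with 21 mo at −0.78 (SE 0.20, adjusted p = 0.175 in edgeR).

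Over the 9 libraries the log2 CPM of Cd36, Lpl, Plin5 and Dgat2 ran together, with Pearson's r from 0.79 between Lpl and Cd36 to 0.93 between Cd36 and Plin5. Plin3 ran opposite to them, at −0.78 with Plin5, −0.78 with Dgat2, −0.81 with Lpl and −0.85 with Cd36. Plin4 had no r beyond 0.43 with any of the other 9 genes. These correlations describe 9 points in 3 groups that share the spread of the 21 mo mice, and none was tested.

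Among all tested genes the closest to Lpl were Fars2, Coq3 and 1700101I11Rik, each at an r of 0.98. The closest to Cd36 were Snx27, Gphn and Decr1 at 0.99, to Angptl4 Psmd5, Ube3a and Cetn2 at 0.97, and to Dgat2 0610005C13Rik, Gpr137b and Rxra at 0.99. 0610005C13Rik is an antisense RNA whose reads may not have been told apart from those of the opposite strand. Rxra, the main partner of the PPAR receptors, was at 171, 201 and 205 CPM in the 18 mo mice, 165, 120 and 81.7 CPM in the 21 mo mice, and 191, 187 and 179 CPM in the 21 mo/O304 mice. It was lowest in the 21 mo mice. Rxra was named for its correlation with Dgat2 over these same libraries, so a pattern shared with Dgat2 followed from that choice.

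The closest to Plin5 were Cpt1a, Mob3b and Fitm2 at 0.98. Cpt1a, which admits fatty acids to mitochondria, was at 507, 602 and 517 CPM in the 18 mo mice, 518, 461 and 288 CPM in the 21 mo mice, and 669, 635 and 603 CPM in the 21 mo/O304 mice. Its O304-treated mice lay above all others. Cpt1a was named for its correlation with Plin5 over these same libraries, so a pattern shared with Plin5 followed from that choice. The closest to Plin2 were Rc3h2, Kif23 and C9orf72 at 0.97, 0.96 and 0.95, and among the closest to Plin3 were Lrrc59 and Dcaf4 at 0.98 and 0.97. Plin4 was closest to Adrb3, the adrenergic receptor known from adipocytes, at 0.94, to Rbm48 at 0.93 and to the adipocyte marker Cfd at 0.92. Pnpla2 was closest to Zrsr2, Fra10ac1 and Eif2b1 at 0.92, 0.90 and 0.89, and Dgat1 to Mrpl40, Steap3 and Nr2c2ap at 0.96, 0.96 and 0.96.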

How the data were processed

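The authors extracted kidney RNA with TRIzol, prepared libraries with an NEBNext Ultra kit, filtered the reads, aligned them with HISAT2 2.0.5 and assigned them to genes with featureCounts 1.5.0-p3. The deposited counts are whole numbers per gene without normalization, and the deposited FPKM values were made by the authors from these counts and gene lengths. The submitters' processing notes name GRCm38 and mm10. The table also holds the authors' DESeq2 (1.20.0) fold changes and p-values, which were not used. Each library has its own replicate number in the labels and is taken as 1 mouse. Neither labels nor methods say so outright, and p-values measure the spread between these libraries, which may be technical where that does not hold. Strandedness and multi-mapping are not given in the sources used here.

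Counts of 15902 of 54532 genes passed filterByExpr (minimum count 10, minimum total 15). The main test was the quasi-likelihood test of edgeR 4.0.16 (R 4.3.3) with TMM, 3 group means and 9 libraries, two-sided, with Benjamini-Hochberg adjustment over all tested genes and a threshold of 0.05. log2 CPM used a prior count of 2. Single genes were also compared by a two-sided exact permutation test, for which 0.1 is the smallest p with 3 mice against 3. The fit was checked on data simulated with the same spread in all 3 groups. That check does not cover the unequal spread of the groups here. Alternatives were DESeq2 1.42.0, limma 3.58.1 (voom with quality weights, and limma-trend on FPKM), other normalizations and filters, 6 libraries, the replicate number as a block, and each library left out.

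The 10 genes, the pathway and marker lists and the tests were chosen with earlier results of these data known. Named besides the 10 genes are the 3 tested genes most correlated with each, the gene with the smallest p of each list and comparison, and the most abundant marker of a reported list. Some genes that this rule names are not reported here. Any further gene or ratio was picked with its values in view. Lipe, Cidec, Fabp4, Plin1, Pnpla3 and Cidea are on both a pathway list and a marker list.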

Additional observations from a re-analysis of the deposited data

How the results depend on the processing

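Of the refitted log2 fold changes of the 10 genes, 576 kept their direction and side of the threshold, 19 kept their direction and passed it, and 5 turned. The 5 were small: Dgat1 at 21 mo against 18 mo was 0.012 under upper-quartile normalization and up to 0.017 when 18 mo replicate 1, 21 mo replicate 1 or 21 mo replicate 2 was left out (range over all libraries left out −0.13 to 0.017), and Pnpla2 with O304 against 18 mo was −0.13 without 21 mo/O304 replicate 1 (range −0.13 to 0.31). The passing values came from DESeq2, limma voom or leaving out replicate 1 of the 21 mo group. Counts are given next in the order 21 mo against 18 mo, O304 against 21 mo, O304 against 18 mo. All genes called were 3, 0 and 0 in edgeR, 2059, 947 and 126 in DESeq2, 8409, 6528 and 415 in limma voom, 576, 17 and 0 with every gene of at least 1 count, 2, 0 and 0 with at least 10 counts in every library, 0, 0 and 22 with only the 6 libraries compared, 4, 0 and 0 with limma-trend on log2(FPKM + 0.1), and 3, 1 and 5 on log2(FPKM + 1) without a filter. Leaving out 1 library gave 0 to 4186, 0 to 3808 and 0 to 12 calls over all genes, the highest without replicate 1 of the 21 mo group in the first and second comparison and without its replicate 3 in the third, and 0 to 3, 0 to 4 and 0 of the 10 genes. Of the 10 genes, DESeq2 called 1, 1 and 0 and limma voom 4, 6 and 0. Of the other pathway genes, DESeq2 called 10, 12 and 5, limma voom 48, 51 and 4, edgeR with every gene of at least 1 count 6, 0 and 0, with only the 6 libraries compared 0, 0 and 2, and with 1 library left out 0 to 24, 0 to 26 and 0 to 2. Other alternatives gave the main counts. Every scaling moved the median of all genes by under 0.1 on the log2 scale. TPM gave the same order of the 10 genes as FPKM.

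Deviations of same-numbered mice from their group means correlated at −0.130 to 0.175, within the −0.263 to 0.202 of differently numbered mice. Overlapping ranges do not settle whether the numbers pair the samples, and 3 mice a group are too few to do so. With the replicate block 0, 0 and 0 of all genes, of the 10 genes and of the pathway genes were called.

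With 3 mice a group, 16 counts of Plin4 in its lowest library, and 3 unlike mice at 21 mo, these data limit what can be said about single genes.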
